A study of Mus musculus with 4 samples.

Results

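The MHC class II presentation genes described here are H2-Aa, H2-Ab1, H2-Eb1, H2-DMa, H2-DMb1, H2-DMb2, H2-Oa, Cd74, Ciita and Ctss. They were taken by symbol from the gene rows of 2 single-cell count matrices, and all 10 were found among 32285 rows. Class II molecules are paired alpha and beta chains that show peptides from endosomes to CD4+ T cells. The invariant chain holds the new pair closed until proteases trim it, and the DM and DO proteins then govern the exchange of the remaining fragment for a peptide. Dendritic cells, macrophages and B cells are the usual carriers, and the coactivator CIITA switches the genes on together.

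The cells came from tumours of OV2944-HM1, a mouse ovarian cancer line, grown under the skin of B6C3F1 mice aged 6 to 8 weeks. Each mouse had received 1000000 tumour cells. The control mice had vehicle injected into the tumour, and the IL-27 mice had 100 ng of recombinant mouse interleukin 27, a cytokine, from the day of implantation and every other day. Tumours were digested on day 14 and CD45-bearing cells, which are of blood origin, were enriched with magnetic beads. B6C3F1 mice carry the H2 b and k haplotypes, whereas the mouse reference derives from a b strain. How reads from k alleles of the H2 genes were counted was not tested.

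There was 1 matrix of UMI counts per group, a UMI being 1 captured transcript. The labels list 2 entries a group, but nothing in the files ties a barcode to either of them. Each group is therefore 1 sample (n = 1), no difference has a replicate check, and no test was made. The control matrix had 10784 barcodes and 54049661 UMIs, and the IL-27 matrix 10183 barcodes and 43868189 UMIs. Median depth was 2384.5 and 1847 UMIs, the median mitochondrial share was 0.373% and 0.637%, and 133 barcodes occurred in both matrices. Levels are UMIs of a gene scaled to 1000000 UMIs of the class (CPM). All intervals are at 95% and cover counting error alone, which is smaller than the spread between animals would be.

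Cells were put into classes by marker transcripts that include none of the 10 genes, and the names rest on transcripts alone, hence "-like". Control and IL-27 matrices gave 107 and 101 cDC1-like cells (conventional type 1 dendritic cells; Xcr1, Clec9a), 111 and 123 cDC2-like cells (Cd209a, Clec10a), 213 and 316 mature dendritic-like cells (Ccr7, Fscn1) and 24 and 26 pDC-like cells (plasmacytoid; Siglech). There were 461 and 509 monocyte-like cells (Ly6c2, Chil3), 1221 and 1098 C1q macrophage-like cells, 1055 and 1166 Dcstamp macrophage-like cells (Dcstamp, Mmp12), and 287 and 230 tumour-like cells. In the tumour-like class Krt8, Krt18 and Krt19 were the 3 of 7 listed markers at 50 CPM or more, and the epithelial marker Epcam had 36 UMIs in the control and 0 in the IL-27 matrix. Neutrophil-like cells (4164 and 3345) and T cell-like cells (659 and 676) served as the background. Ngp and Camp, granule genes of neutrophil precursors, led the genes that set the monocyte-like class apart, ahead of Chil3 and Ly6c2, and 2 IL-27 cells carried most of the neutrophil marker signal.

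The promoters of several of these genes carry a known arrangement, and it is shown because CIITA acts through it. RFX binds an X box and NF-Y a Y box just upstream of the start, and CIITA docks on the assembled proteins. In the RefSeq promoter table (build GRCm38.p6, from 250 bases before to 50 after each start), 7 of 10 members had an entry, and H2-Ab1, Cd74 and Ciita did not. The gene's strand of these members was searched for the X box core GNAAC followed after 20 to 35 bases by the Y box GATTGG. The share over all promoters counts such a pair on either strand. The pair was found in H2-Aa, H2-Eb1, H2-DMb1 and H2-Oa, 4 of the 7, against 0.922% of 32851 promoters. The letters are printed 5′ to 3′ on the gene's strand, with X and Y matches in capitals.
H2-Aa (chr17:34287862-34287909, minus strand): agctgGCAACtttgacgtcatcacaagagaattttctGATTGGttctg
H2-Eb1 (chr17:34305771-34305817, plus strand): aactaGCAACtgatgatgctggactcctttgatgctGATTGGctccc
H2-DMb1 (chr17:34153092-34153139, plus strand): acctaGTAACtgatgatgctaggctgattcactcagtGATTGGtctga
H2-Oa (chr17:34092298-34092345, plus strand): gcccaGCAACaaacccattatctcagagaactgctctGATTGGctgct
H2-DMb2 (chr17:34145116-34145168, plus strand): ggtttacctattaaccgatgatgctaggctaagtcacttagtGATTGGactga

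The gap between the matches was 26 bases in H2-Eb1 and 27 bases in the other members with the pair. H2-DMb2, the near copy of H2-DMb1, held the Y box letters without the X core at this spacing, and neither of 2 annotated H2-DMa starts had the pair. GATTGG alone is in 16.1% of promoters and GNAAC in 84.8%, so a single match is common. Outside the 10 genes, the class II chain genes H2-Ob and H2-Eb2 also held the pair, with gaps of 24 and 26 bases. A match is a string of letters and not a measured binding site, and its absence says nothing of the factor.

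**Figure D1:**
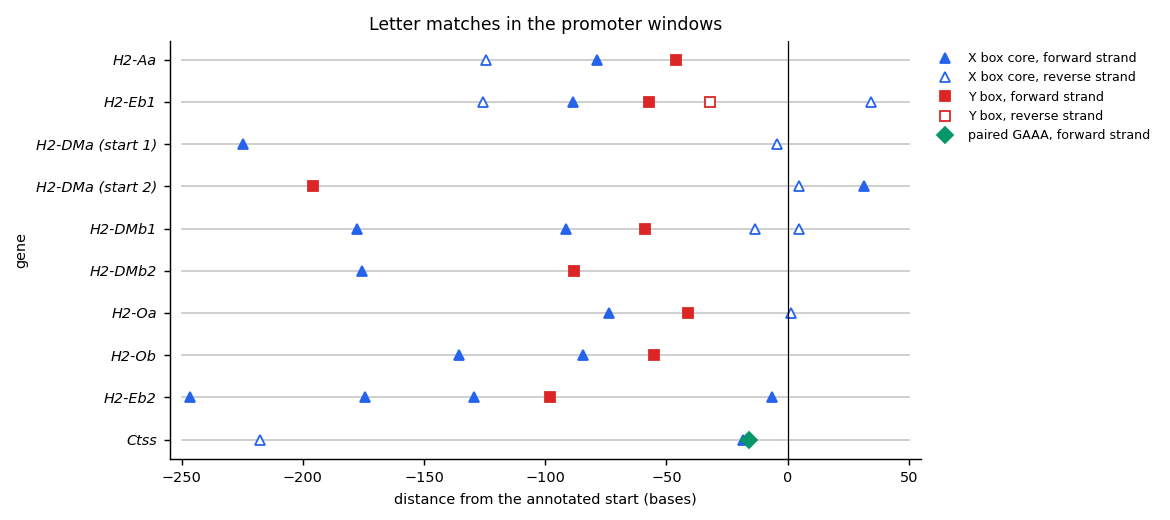
Letter matches in the 300-base promoter windows of 7 members and of H2-Ob and H2-Eb2, by distance from the annotated start in bases (horizontal axis). Filled marks are on the gene's strand and open marks on the other, and H2-DMa has 2 annotated starts. Matches of TTCNNNGAA are not drawn. In H2-Aa, H2-Eb1, H2-DMb1, H2-Oa, H2-Ob and H2-Eb2 a filled X mark precedes a filled Y mark, with 24 to 27 bases between the matches.

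Ctss encodes cathepsin S, the protease that trims the invariant chain, and it lies outside the H2 region. Its promoter had neither the pair nor GATTGG, but held GAAA, any 2 bases and GAAA again, the repeat of interferon-responsive elements, which 3.44% of promoters hold on either strand. It is shown with the repeat in capitals, and its part in the Ctss levels was not tested. A further string, TTCNNNGAA, was found in the H2-DMb2 promoter but not in that of Ctss, and 8.30% of promoters hold it. The repeat overlaps a GNAAC match.
Ctss (chr3:95526737-95526784, plus strand): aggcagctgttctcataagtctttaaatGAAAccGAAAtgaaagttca

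The peptide-binding chains are encoded by H2-Aa and H2-Ab1, which pair as I-A, and by H2-Eb1, the beta chain of I-E. In GRCm38 they lie on chromosome 17 at 34282744 to 34287823 (H2-Aa, minus strand), 34257689 to 34269419 (H2-Ab1, plus strand) and 34305867 to 34316674 (H2-Eb1, plus strand). H2-Ea, the alpha partner of H2-Eb1, was not analysed here. H2-Aa was at 10986 CPM in control and 9057 CPM in IL-27 cDC1-like cells, and at 9566 and 7804 CPM in cDC2-like cells. It was at 5271 and 3185 CPM in mature dendritic-like cells. The conventional dendritic classes thus stood first and the mature class next, with no overlap of their counting intervals. Dcstamp macrophage-like cells had 2849 and 2449.6 CPM of H2-Aa, and pDC-like cells 2676 and 2156 CPM. Those 2 classes overlapped in the control matrix. Monocyte-like cells had 1594 and 945 CPM and C1q macrophage-like cells 1183 and 1090.1 CPM, so these neighbours changed order between the matrices. H2-Ab1 ran from 10477 CPM in control cDC1-like cells to 848 CPM in IL-27 monocyte-like cells over the dendritic, monocyte and macrophage classes. H2-Eb1 ran from 8967 to 466 CPM over the same classes.

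Background was read from the neutrophil-like and T cell-like classes. There H2-Aa was at 76.1 and 79.6 CPM and at 118 and 67.6 CPM, control first. In cells thinned to 1000 UMIs, 4.93% and 5.90% of neutrophil-like cells had an H2-Aa UMI (9.08% and 8.04% unthinned, at median depths of 2166 and 1619 UMIs). The share in thinned C1q macrophage-like cells was 30.2% and 30.6% (38.4% and 35.5% unthinned, at 1976 and 1577.5 UMIs). Macrophage shares were therefore above the neutrophil share beyond counting error. Cd74 had the widest background, with a UMI in 22.3% and 21.3% of thinned neutrophil-like cells and in 22.1% and 22.2% of thinned T cell-like cells (48.1% and 49.7% unthinned, at 6039 and 4278.5 UMIs). Thinning left out 449 and 564 neutrophil-like and 245 and 277 C1q macrophage-like cells below 1000 UMIs.

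**Figure D2:**
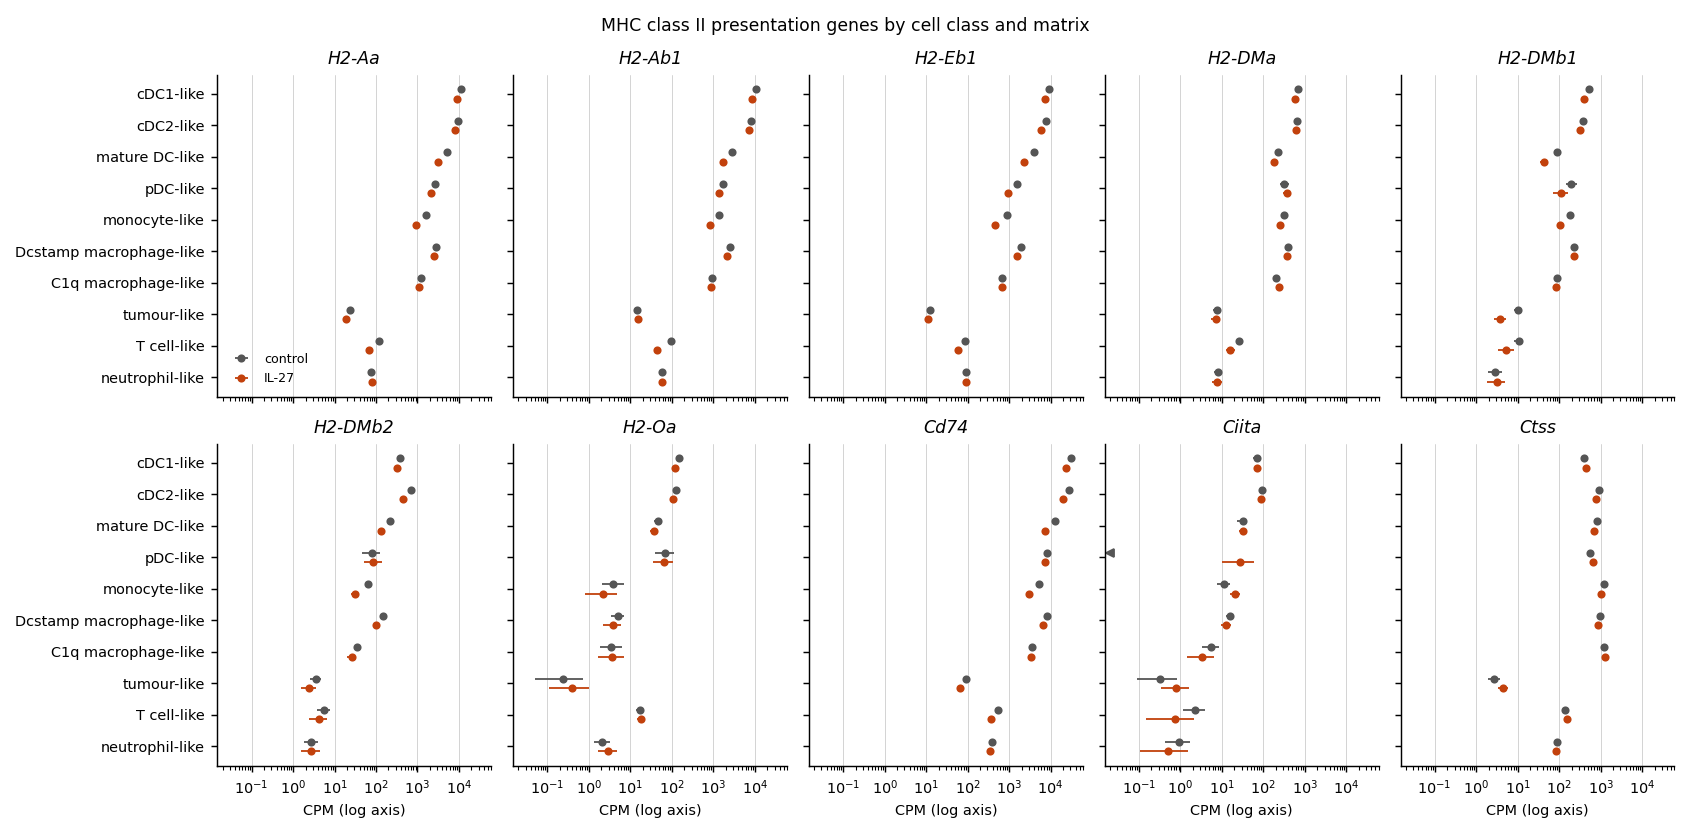
Level of each of the 10 genes (CPM, log axis) in 10 cell classes of the control (grey) and IL-27 (orange) matrix; bars are exact 95% Poisson intervals for counting error and a left-pointing arrowhead marks a count of 0. H2 chains and Cd74 stand highest in cDC1-like and cDC2-like cells, while Ctss is highest in C1q macrophage-like and monocyte-like cells.

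H2-DMa pairs with H2-DMb1 or H2-DMb2 to form DM, which speeds peptide exchange, and H2-Oa is the alpha chain of DO, which restrains DM. They lie on chromosome 17, plus strand, at 34119541 to 34139101 (H2-DMa), 34153072 to 34160230 (H2-DMb1), 34143307 to 34151555 (H2-DMb2) and 34092340 to 34095234 (H2-Oa). Of the 60-base stretches of the longest transcript, 23.4% of those of H2-DMb1 and 25.3% of those of H2-DMb2 occur in another gene, so counts of this pair are less certain. H2-DMa overlaps a gene model on its own strand and Brd2 on the other, and H2-Eb1, H2-Oa and Ciita each overlap a gene on the opposite strand. The sources used here do not say whether counting used strand.

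The balance of the 2 DM beta genes differed between classes. Of the UMIs of H2-DMb1 and H2-DMb2 together, H2-DMb2 held 41.9% (39.6 to 44.2) in control and 43.8% (41.1 to 46.4) in IL-27 cDC1-like cells. Its share was 64.5% (62.1 to 66.9) and 58.9% (56.0 to 61.7) in cDC2-like cells. Mature dendritic-like cells had the largest H2-DMb2 share of the 8 classes, 70.6% (66.5 to 74.4) and 75.1% (70.5 to 79.4). Monocyte-like cells had 26.7% and 22.8%, and C1q macrophage-like cells 27.8% and 23.0%, with overlapping intervals. Dcstamp macrophage-like cells lay between, at 39.0% (37.0 to 41.0) in the control and 30.6% (28.3 to 32.9) in the IL-27 matrix. Within both matrices the cDC2-like and mature classes had intervals above 50% and the monocyte and macrophage classes below it. H2-DMb2, H2-Eb1 and H2-Ab1 were among the 10 genes that most set the cDC2-like class apart from all other kept cells together, although the class was not chosen by them. Against control cDC1-like cells alone, H2-Ab1 was lower in control cDC2-like cells (8192 against 10477 CPM), as was H2-Eb1 (7893.5 against 8967 CPM). H2-DMb2 was higher (696 against 378 CPM).

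The chains of I-A showed a class difference too. H2-Ab1 made up 48.8% (48.3 to 49.3) of H2-Ab1 and H2-Aa UMIs in control cDC1-like cells and 35.3% (34.6 to 36.1) in control mature dendritic-like cells. The values in the IL-27 matrix were 49.0% and 34.99%. The lower beta share of the mature class was thus present in both matrices. Monocyte-like and macrophage-like classes had shares of 44.3% to 47.5%. In pDC-like cells the share was 39.6% (36.5 to 42.6) and 39.0% (35.5 to 42.5), and in tumour-like cells 38.2% and 45.9%. The mature class overlapped the pDC-like class in the IL-27 matrix and the tumour-like class in the control.

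**Figure D3:**
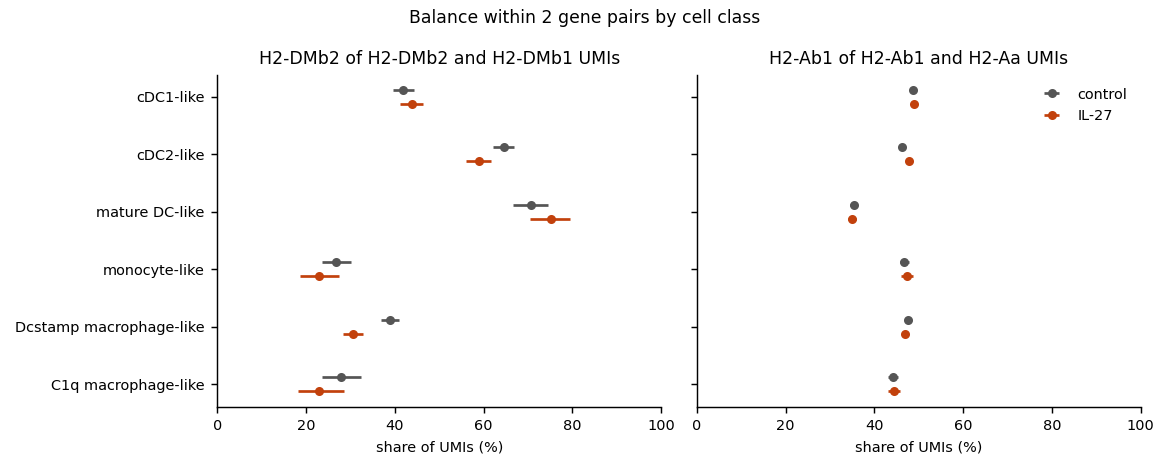
Share of H2-DMb2 in the UMIs of H2-DMb2 and H2-DMb1 (left) and of H2-Ab1 in those of H2-Ab1 and H2-Aa (right), in percent, for 6 cell classes of the control (grey) and IL-27 (orange) matrix; bars are exact 95% binomial intervals. The H2-DMb2 share is highest in mature dendritic-like cells (70.6% and 75.1%), and the H2-Ab1 share is lowest there (35.3% and 34.99%).

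H2-Oa stood above background in the 4 dendritic classes. It was at 146 and 117 CPM in cDC1-like, 126 and 104 CPM in cDC2-like, 69.7 and 64.1 CPM in pDC-like and 47.8 and 36.6 CPM in mature dendritic-like cells. Monocyte-like cells had 3.92 and 2.16 CPM, C1q macrophage-like cells 3.51 and 3.68 CPM and Dcstamp macrophage-like cells 4.96 and 3.77 CPM. These last classes overlapped the neutrophil-like level of 2.12 and 2.92 CPM in both matrices, except for Dcstamp macrophage-like cells in the control. All of them lay below the T cell-like level of 17.1 and 18.0 CPM. H2-Oa was therefore not told apart from the neutrophil-like background in monocyte-like and C1q macrophage-like cells at this depth. In Dcstamp macrophage-like cells this held for the IL-27 matrix alone. The T cell-like level was itself above the neutrophil-like level.

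Cd74 encodes the invariant chain, on chromosome 18. It had 30803 CPM in control and 23314 CPM in IL-27 cDC1-like cells, 28005 and 20445 CPM in cDC2-like cells and 12890.5 and 7466 CPM in mature dendritic-like cells. It made up between 43.3% and 55.7% of the UMIs of the 10 genes in each of the 10 classes of both matrices. Its order over classes was that of H2-Aa, except that pDC-like cells stood level with or above Dcstamp macrophage-like cells.

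Ctss, on chromosome 3 at 95526786 to 95556403, plus strand, ordered the classes differently. It was highest in C1q macrophage-like cells (1224 and 1304 CPM) and monocyte-like cells (1211 and 1042 CPM), whose control intervals overlapped. It was lowest among the antigen-presenting classes in cDC1-like cells, at 395 and 433 CPM. As a share of the UMIs of the 10 genes, Ctss made up 0.622% and 0.861% in cDC1-like cells but 15.4% and 17.1% in C1q macrophage-like cells.

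Ciita, on chromosome 16 at 10480059 to 10528418, plus strand, encodes the coactivator. Its UMIs were few, but in the control its class order was that of H2-Aa apart from the first 2 classes and the pDC-like class. It was at 91.6 and 88.4 CPM in cDC2-like, 68.8 and 69.4 CPM in cDC1-like and 31.5 and 32.5 CPM in mature dendritic-like cells. Dcstamp macrophage-like cells had 15.8 and 12.8 CPM, monocyte-like cells 11.1 and 20.9 CPM and C1q macrophage-like cells 5.56 and 3.27 CPM. The 2 conventional classes had overlapping intervals, and in the IL-27 matrix monocyte-like cells stood above Dcstamp macrophage-like cells. In pDC-like cells Ciita was at 0 UMIs in the control and 6 UMIs in the IL-27 matrix, so no ratio is given.

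Within the classes of middle level, cells with a Ciita UMI held more of the other 9 genes. In mature dendritic-like cells thinned to 1000 UMIs the median was 35 UMIs in cells with Ciita and 12.5 UMIs without in the control, and 29 and 6 UMIs in the IL-27 matrix. In monocyte-like cells it was 14 against 4 UMIs and 12 against 2 UMIs. In cDC1-like cells, where 62 of 107 control cells had a Ciita UMI, the control medians went the other way, 58.5 with and 65 without, while those of the IL-27 matrix were 51 with and 44 without. Whether a cell has a Ciita UMI also depends on its depth, and the part of depth was not tested.

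Between the matrices, mature dendritic-like cells had lower class II levels after IL-27. The 10 genes together went from 26435 to 15791 CPM, a ratio of IL-27 to control of 0.597 (0.589 to 0.606), and 0.615 without Cd74. Of 10 members, 6 were at least 1.5-fold lower and 0 at least 1.5-fold higher, where 11.1% of 8657 genes with 20 or more UMIs in this class were that much lower and 12.6% that much higher. The median log2 ratio was -0.72 over the members and 0.02 over all genes. The 6 were H2-Aa at 0.604, H2-Ab1 at 0.595 (2880 to 1714 CPM), H2-Eb1 at 0.582 (3980 to 2316 CPM), Cd74 at 0.579, H2-DMb1 at 0.486 (88.2 to 42.9 CPM) and H2-DMb2 at 0.611 (212 to 130 CPM). All of these intervals were below 1. H2-DMa went from 229 to 179 CPM, a ratio of 0.779 (0.677 to 0.897), and Ctss from 805 to 690 CPM, a ratio of 0.857 (0.797 to 0.922). Ciita did not differ beyond counting error, at 31.5 and 32.5 CPM with a ratio of 1.03 (0.718 to 1.49), and the interval of H2-Oa, 0.765 (0.557 to 1.05), also held 1.

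The lower level was seen across depths and cells. The ratio was 0.590 in mature dendritic-like cells of 500 to 2000 UMIs, 0.820 in those of 2000 to 5000, 0.618 in those of 5000 to 10000 and 0.621 in deeper cells. After thinning, the median cell had 15 class II UMIs of 1000 in the control and 7 in the IL-27 matrix. Of 179 control cells 37.4% (30.3 to 45.0) had 20 or more, as did 21.2% (16.4 to 26.6) of 264 cells in the IL-27 matrix, with 34 and 52 shallower cells left out. The class is uneven, since the 10% of cells with most class II UMIs held 55.1% and 58.3% of them.

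The 7 markers that define the class did not move together. Ccr7 at a ratio of 0.997 (0.965 to 1.03), Fscn1 at 1.03 (0.983 to 1.08) and Socs2 at 1.05 did not differ beyond counting error. Ccl22 at 1.42 and Cacnb3 at 1.21 were higher, and Il4i1 at 0.711 and Nudt17 at 0.824 were lower. Markers of other classes also differed between the matrices in these cells. The summed C1q macrophage list of 7 markers was at 169 and 69.5 CPM, the Dcstamp list of 4 at 691 and 285 CPM, the neutrophil list of 7 at 679 and 363 CPM, and the cDC2 list of 7 at 640.1 and 533 CPM, with 0 markers of these lists at 0. The T cell list of 7 was at 1.69 and 51.4 CPM, with Cd3e, Cd3g, Trbc2, Cd5 and Lck at 0 in the control. With the 8% of highest doublet scores removed the class II ratio was 0.580. The part of the other classes' transcripts in the result was not tested.

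**Figure D4:**
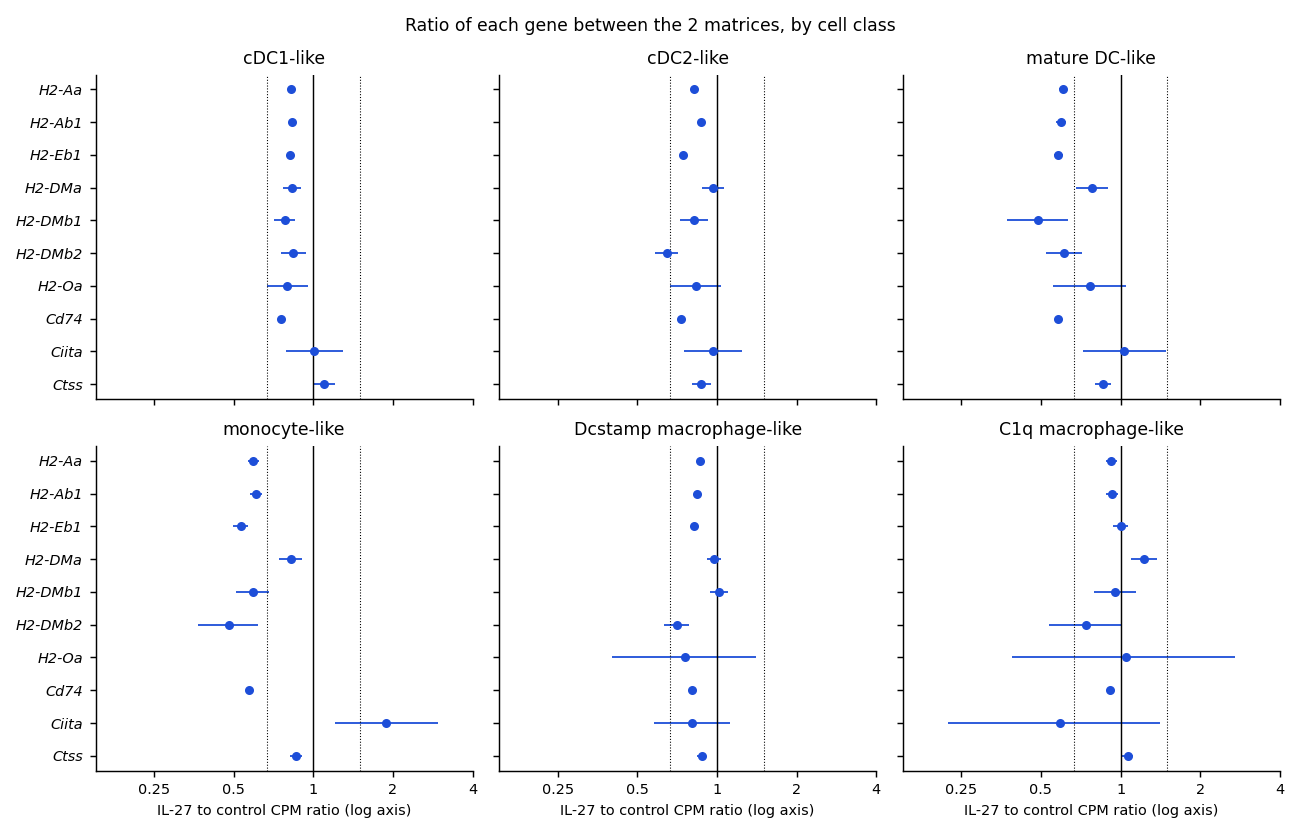
Ratio of IL-27 to control CPM (log axis) for each of the 10 genes in 6 cell classes, with exact conditional 95% intervals for counting error; genes under 20 UMIs in a class are left out, the solid line is 1 and dotted lines mark 1.5-fold. In mature dendritic-like and monocyte-like cells 6 genes each lie past the lower dotted line, while Ciita is at or above 1 there.

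Monocyte-like cells showed the other large difference. The summed level went from 10859 to 6684 CPM, a ratio of 0.616 (0.605 to 0.627). Here 6 of 9 members with 20 or more UMIs were at least 1.5-fold lower, against 9.02% of 8927 genes, and 1 was at least 1.5-fold higher, against 8.73%. The median log2 ratio of the members was -0.75. H2-Aa was at 0.593, H2-Ab1 at 0.606 (1399 to 848 CPM), H2-Eb1 at 0.531 (877 to 466 CPM), Cd74 at 0.570 (5206 to 2968 CPM), H2-DMb1 at 0.589 (179 to 106 CPM) and H2-DMb2 at 0.479 (65.4 to 31.3 CPM). H2-DMa, at 0.820 (312 to 256 CPM), and Ctss, at 0.860, were lower by less. The chains, the invariant chain and the DM beta genes thus formed the lower set in both this class and the mature dendritic-like class. The 2 classes share no cells but come from the same 2 matrices. Each of these genes also had a ratio below 1 in the background T cell-like cells. The ratios there ran from 0.466 for H2-Ab1 to 0.748 for H2-DMb2, whose interval held 1. In neutrophil-like cells the summed ratio was 0.948. The part of differences between the matrices as a whole was not tested.

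Ciita was the member that was higher in monocyte-like cells, with 34 UMIs in 28 of 461 control cells and 58 UMIs in 37 of 509 IL-27 cells. The level went from 11.1 to 20.9 CPM, a ratio of 1.88 (1.21 to 2.96). No single cell held more than 4 of these UMIs. The interval held 1 when the marker gate was made stricter, at 1.49 (0.966 to 2.33). After thinning, 0.662% and 2.44% of the cells had a Ciita UMI, against 0.0808% and 0.0719% of neutrophil-like cells.

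The monocyte ratio depended on depth. It was 1.08 (0.947 to 1.23) in cells of 500 to 2000 UMIs, 0.875 in those of 2000 to 5000, 0.592 in those of 5000 to 10000 and 0.448 (0.430 to 0.467) in deeper cells. The shallowest cells, 40 in the control and 72 in the IL-27 matrix, thus showed no lower level. With every cell thinned to 1000 UMIs the ratio was 0.683. In the control 19.6% (16.1 to 23.6) of thinned monocyte-like cells had 20 or more class II UMIs, and in the IL-27 matrix 10.4% (7.82 to 13.4), with 8 and 17 shallower cells left out.

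Other markers moved in the monocyte-like class as well. Of its own 7 markers Ly6c2, Ly6i and Plac8 were lower, at ratios of 0.686, 0.369 and 0.880, and Vcan and Ccr2 were higher, at 1.49 and 1.22. The intervals of Chil3 and F13a1 held 1. The 7 neutrophil markers summed to 1394 CPM in the control and 5397 CPM in the IL-27 matrix. Leaving out 2 IL-27 cells rich in the granule genes Ngp and Camp brought the latter to 1716 CPM, and the class II ratio was then 0.631. The 4 Dcstamp markers summed to 2441 and 3640.3 CPM and the 7 C1q macrophage markers to 622 and 597 CPM, with 0 markers of these lists at 0. The part of these in the result was not tested.

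**Figure D5:**
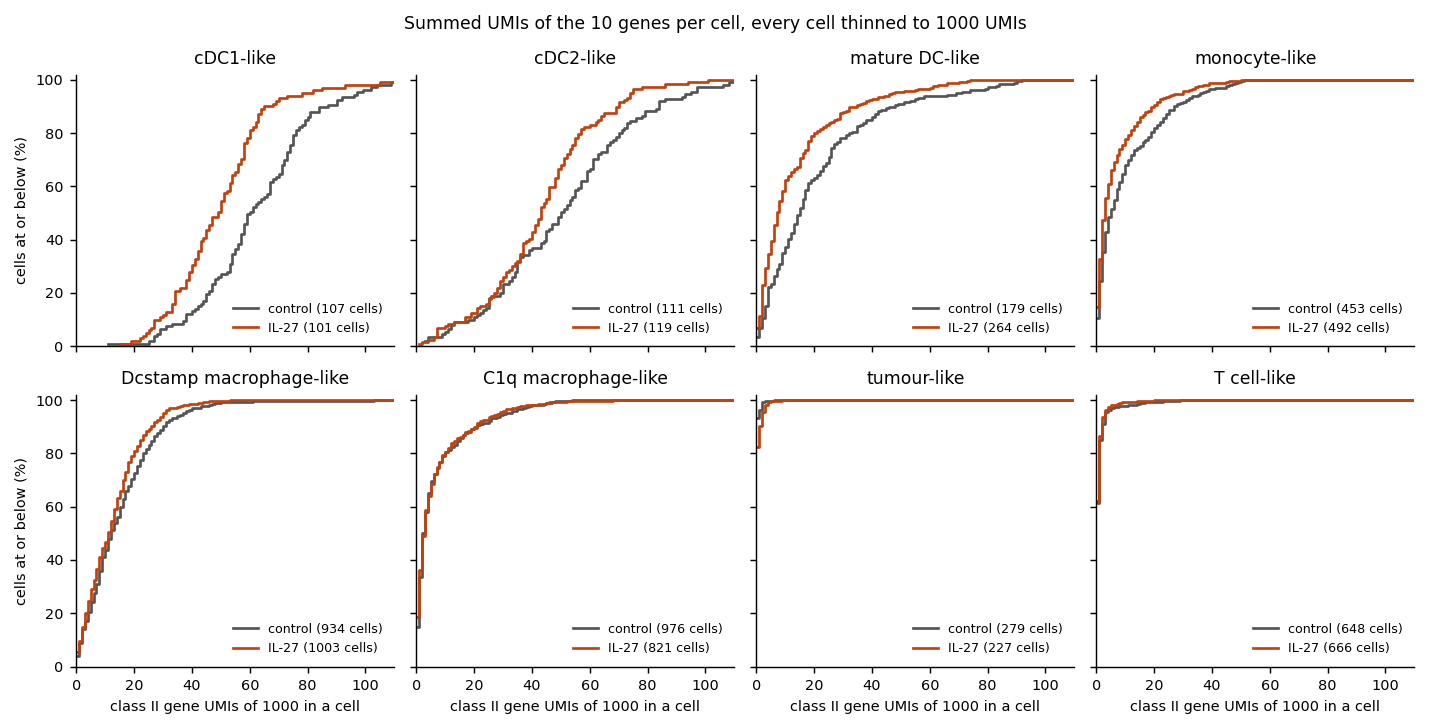
Share of cells (vertical axis, percent) with at most a given number of UMIs of the 10 genes among 1000 UMIs (horizontal axis), for 8 cell classes of the control (grey) and IL-27 (orange) matrix, every cell thinned to 1000 UMIs and shallower cells left out. The IL-27 curves lie to the left in cDC1-like, mature dendritic-like and monocyte-like cells, whose medians were 60 and 49, 15 and 7, and 5 and 3 UMIs, and the curves of C1q macrophage-like cells nearly coincide.

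Conventional dendritic-like cells had lower levels by a smaller factor. In cDC1-like cells the sum went from 63438 to 50300 CPM, a ratio of 0.793 (0.786 to 0.800). No member was 1.5-fold lower or higher (0 of 10 in each direction, against 8.47% and 10.4% of 8488 genes). For 8 of 10 the interval was below 1, but the share of all genes with such intervals was not computed. High counts give narrow intervals, so this count is not read as a result about the members. The 8 lay between 0.757 for Cd74 and 0.839 for H2-DMb2, while Ciita at 1.01 (0.789 to 1.29) and Ctss at 1.10 (0.994 to 1.21) held 1. The median log2 ratio was -0.27 against 0.03 over all genes. Most of the cells had 10000 UMIs or more (89 and 79 cells), and their ratio was 0.783. In the 10 and 13 cells of 5000 to 10000 UMIs it was 1.13. The 7 C1q macrophage markers summed to 56.7 and 27.96 CPM in cDC1-like cells, with Ms4a7 at 0 in the control, and the 4 Dcstamp markers to 195 and 129.98 CPM, with 0 at 0. Their part in the result was not tested.

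In cDC2-like cells the sum went from 56478 to 43595 CPM, a ratio of 0.772 (0.764 to 0.780). H2-DMb2 was the 1 of 10 members at least 1.5-fold lower, at 0.645 (696 to 449 CPM), against 11.5% of 7916 genes, and 0 were that much higher, against 10.6%. H2-Eb1 was at 0.742 and Cd74 at 0.730. H2-DMa at 0.965 (0.879 to 1.06), H2-Oa at 0.831 (0.667 to 1.03) and Ciita at 0.966 (0.753 to 1.24) did not differ beyond counting error. The ratio lay between 0.724 and 0.817 in all 4 depth ranges. In cDC2-like cells the neutrophil marker sum was 139 and 364 CPM. Other sums were larger, with mature dendritic markers at 1833 and 1491 CPM, monocyte markers at 527 and 491 CPM and Dcstamp markers at 392 and 430 CPM. The part of these was not tested.

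In pDC-like cells, with 24 and 26 cells, the sum went from 15426 to 13168.5 CPM, a ratio of 0.854 (0.812 to 0.897). H2-Eb1 at 0.607 and H2-DMb1 at 0.560 were the 2 of 9 members at least 1.5-fold lower, against 16.8% of 3685 genes, and 0 were that much higher, against 16.2%. The ratio was 0.967 (0.898 to 1.04) in the 8 and 8 cells of 10000 UMIs or more. Markers of other classes differed as well in these few cells. The 7 neutrophil markers summed to 2245 and 265 CPM, with Cxcr2 and Retnlg at 0 in the IL-27 matrix, and the 7 T cell markers to 588 and 9.15 CPM, with Cd3e, Cd3d, Cd3g, Trbc2 and Lck at 0 there. The 7 cDC2 markers summed to 641 and 1108 CPM, with Tnip3 at 0 in the control, and the 4 Dcstamp markers to 21.8 and 183 CPM, with Dcstamp and Mmp19 at 0 in the control. Their part in the result was not tested.

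The macrophage classes differed from one another. Dcstamp macrophage-like cells had 17197 and 14290.5 CPM, a ratio of 0.831 (0.823 to 0.839), with 0 of 10 members past 1.5-fold in either direction (8.3% of 10177 genes were that much lower and 5.45% higher). There H2-DMb2 was at 0.704 (0.629 to 0.787) while its near copy H2-DMb1 was at 1.02 (0.942 to 1.11). C1q macrophage-like cells had 7972 and 7617 CPM, a ratio of 0.955 (0.938 to 0.973), and 0.988 (0.964 to 1.01) without Cd74. In the C1q class 1 of 10 members was at least 1.5-fold lower, against 6.97% of 9556 genes, namely Ciita with 19 and 8 UMIs and an interval of 0.223 to 1.41. None was that much higher (0 of 10, against 7.57%). H2-DMa was higher there, at 197 and 242 CPM and a ratio of 1.23 (1.10 to 1.37), as was Ctss at 1.07 (1.02 to 1.12). The C1q class had no single direction over depth, with summed ratios of 0.854, 1.12, 0.924 and 1.44 from the shallowest to the deepest range.

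In tumour-like cells class II transcripts sat in a few cells. The sum was 165 CPM in the control and 128 CPM in the IL-27 matrix, at median depths of 40894 and 42750.5 UMIs, below the 709 and 673 CPM of neutrophil-like cells. A UMI of any of the 10 genes was found in 121 of 287 and 99 of 230 cells. The 5 cells with most held 59.7% and 83.3% of these UMIs, and 1 IL-27 cell held 34.1%, with 439 class II UMIs, 517 Krt8 and Krt18 UMIs and 0 Ptprc UMIs. Each of these 10 cells had keratin UMIs, between 72 and 517, and between 0 and 7 UMIs of Ptprc, the gene of CD45. They had between 18 and 153 UMIs of dendritic, monocyte and macrophage markers, where the median of all tumour-like cells was 11 and 13.

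No direction is given for the tumour-like class. The ratio was 0.774 (0.721 to 0.830) over all cells, 0.322 without the 5 leading cells of each matrix, 1.42 with a looser marker gate and 2.96 after thinning. It also depended on depth. In cells of 500 to 2000 UMIs, 15 control and 42 IL-27 cells, it was 3.01 (1.38 to 7.75), at 422 and 1270 CPM. In the 14 and 4 cells of 2000 to 5000 UMIs the interval held 1. In the 246 and 178 cells of 10000 UMIs or more it was 0.740 (0.689 to 0.795). The 7 neutrophil markers summed to 144 and 66.4 CPM in tumour-like cells, with 0 at 0, and their part was not tested. Of 8 members 1 was at least 1.5-fold lower (H2-DMb1, 123 and 38 UMIs), against 7.45% of 11886 genes, and 1 higher (Ctss, 34 and 45 UMIs), against 5.04%. The mix of transcripts was unlike that of the neutrophil-like cells. H2-DMb1 made up 6.03% (5.03 to 7.15) and 2.95% (2.10 to 4.03) of class II UMIs in tumour-like cells but 0.399% and 0.459% in neutrophil-like cells, and Ctss 1.67% and 3.49% against 12.2% and 12.8%. In thinned cells, Cd74 was found in 3.58% and 12.3% of tumour-like cells, below the neutrophil-like shares of 22.3% and 21.3%. By that measure the tumour-like class as a whole was below the neutrophil-like level. Neutrophil-like cells had median depths of only 2166 and 1619 UMIs before thinning, so their level may not be the background of tumour-like cells. H2-DMb1 was above it in the control, at 9.97 CPM (8.29 to 11.9) against 2.83 CPM (1.88 to 4.09). In the IL-27 matrix the H2-DMb1 intervals overlapped, at 3.78 and 3.09 CPM.

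In the background classes, T cell-like cells went from 1044 to 738 CPM, a ratio of 0.707 (0.677 to 0.739), with 4 of 9 members at least 1.5-fold lower against 11.2% of 10882 genes and 0 higher against 10.1%. A few cells carried much of this, since the 5 T cell-like cells with most class II UMIs held 32.1% of them in the control and 20.5% in the IL-27 matrix, and 1 control cell held 13.9%. The share of thinned T cell-like cells with no class II UMI was 61.6% and 62.2%, with overlapping intervals. The 7 monocyte markers summed to 1165 and 563 CPM in these cells, with 0 at 0, and the 7 cDC2 markers to 71.5 and 34.5 CPM, with 2 at 0 in each matrix. The C1q macrophage list was at 72.9 and 49.8 CPM and the Dcstamp list at 75.3 and 68.1 CPM. Other lists went the other way. The mature dendritic list was at 462 and 478 CPM, the cDC1 list at 2.21 and 6.08 CPM and the pDC list at 15.1 and 25.3 CPM. The part of these lists in the lower T cell level was not tested. For neutrophil-like cells the ratio was 0.948 (0.912 to 0.986), with 0 of 9 members past 1.5-fold in either direction, against 10.1% lower and 11.6% higher of 9110 genes. The lower T cell level moved with those of the monocyte-like and mature dendritic-like classes, and its part in them was not tested.

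A wider list of 35 pathway genes, of which 31 were in the matrices, was read the same way. In mature dendritic-like cells 5 of 30 measured genes were at least 1.5-fold lower and 1 higher, beside 11.1% and 12.6% of all genes in this class. The 5 were the endosomal proteases Ctsl at 0.318 (62.4 to 19.9 CPM), Ctsb at 0.662 and Ctsd at 0.646, the DO beta chain H2-Ob at 0.591, and Spi1, a myeloid transcription factor that acts on Ciita promoters, at 0.656. March8, a ubiquitin ligase for class II, was higher at 6 and 18 UMIs with an interval that held 1. None of the 7 genes of the promoter complex passed 1.5-fold there. With so few genes, 5 of 30 is not read as a result about the list. The C1q macrophage and Dcstamp marker sums were lower in these cells too, at 169 and 69.5 CPM and at 691 and 285 CPM. Their part was not tested.

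In monocyte-like, cDC1-like and cDC2-like cells the counts were near or under the shares of all genes, so they too are no result about the list. In monocyte-like cells 3 of 29 were lower and 0 higher (all genes 9.02% and 8.73%), namely the protease Ctsh at 0.652, the thiol reductase Ifi30 at 0.659 and Rfx5, a subunit of RFX, at 21 and 11 UMIs with an interval that held 1. In cDC1-like cells 3 of 29 were lower, including the protease Lgmn at 0.628 (80.8 to 50.8 CPM), and 2 were higher, including Nfya, a subunit of NF-Y, at 1.59 (all genes 8.47% and 10.4%). In cDC2-like cells 0 of 28 were lower and 2 higher, Nfya at 2.45 (18.7 to 45.9 CPM) and Creb1 at 1.56 (all genes 11.5% and 10.6%). Nfya was therefore higher in both conventional classes, while in C1q macrophage-like cells it was lower, at 0.620. Of the measured list genes 1 of 29 was lower and 1 higher in C1q macrophage-like cells (all genes 6.97% and 7.57%), 1 of 30 lower and 2 higher in Dcstamp macrophage-like cells (8.3% and 5.45%), 1 of 26 lower and 1 higher in tumour-like cells (7.45% and 5.04%), and 2 of 17 lower and 4 higher in pDC-like cells (16.8% and 16.2%). Dcstamp macrophage-like cells had March1 at 0.578 and Cd83, which stabilises class II at the surface, at 1.56 (200.1 to 312 CPM). Irf8 was at 1.52 in pDC-like cells, and in tumour-like cells Irf1, which acts on a Ciita promoter, was at 0.651 (61.7 to 40.2 CPM).

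Across the 20 combinations of class and matrix, the members ran together. Correlated with the sum of the other 9 on the log2(CPM + 1) scale, Cd74 had a Pearson r of 0.998, H2-Aa 0.996, H2-Ab1 0.995, H2-Eb1 0.991, H2-DMb2 0.962, H2-DMa 0.961 and H2-DMb1 0.926. Ciita at 0.832, Ctss at 0.828 and H2-Oa at 0.741 followed less closely. Among 9078 other genes, the 10 most like the sum were Slc8a1 (r = 0.959), Prcp, Cbfa2t3, Gosr2, Htr7, Shtn1, Pkib, Gnai2, Hhex and Cd83 (r = 0.915). Of these Slc8a1, a sodium and calcium exchanger, was highest in control cDC2-like cells at 65.9 CPM, and Cd83 in control cDC1-like cells at 926 CPM. These values are descriptions: the points come from 2 matrices, depth differs between the points, and each class appears in both matrices.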

How the data were processed

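The deposited files hold UMI counts per gene and cell barcode, 1 matrix per group. Cell Ranger 4.0.0 wrote them, per the file headers; Seurat 3.2.0 and the mm10 build are named per the submitters' processing notes, with no role. Gene positions are from GENCODE on GRCm38 and promoters from RefSeq.

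Cells were kept from 200 genes and 500 UMIs upward where mitochondrial UMIs stayed below 10% (10617 control and 9990 IL-27 cells). Each cell took the class with the highest mean z-score of marker expression (log of counts per 10000) among 16 lists, given at least 3 UMIs from at least 2 markers. Cells scoring for a second lineage at 50% or more of the best score were left out (424 and 399), and 1710 and 1784 had no class. The gate was set after the data were seen. Scrublet (scanpy 1.11.5) called 0 control and 167 IL-27 cells (1.67%) as doublets, so the caller did not work in the control and none were removed.

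Counts were summed per class and divided by its total (CPM). Intervals are exact: Poisson for levels, Clopper-Pearson for shares, conditional binomial for ratios. Where a count is 0, 3 counts were taken as the limit. The ratio calculation was tested on simulated data. The planned test for every comparison was none, since each group is 1 matrix. All 10 members are named, as are the 10 genes with the highest correlation to their sum among genes with 100 UMIs in at least 2 combinations of class and matrix. Other pathway genes are named at 1.5-fold in either direction with 50 UMIs in the higher matrix, and a few others named in counts of 5 or fewer were picked after their values were seen. A gene of the pathway list is not reported here by name. The members and lists were chosen with earlier results of these data known. Alternatives covered the gate, mitochondrial limit, doublets, thinning, scaling and shared barcodes.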

Additional observations from a re-analysis of the deposited data

Results flagged for a closer look

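Some genes lay off 1 in opposite directions in different classes, beyond counting error. These differences between classes were not tested, since each group is 1 matrix.

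The H2-DMa ratio of IL-27 to control was 1.23 (1.10 to 1.37) in C1q macrophage-like cells, but 0.831 in cDC1-like, 0.779 in mature dendritic-like and 0.820 in monocyte-like cells. The Ctss ratio was 1.07 (1.02 to 1.12) in C1q macrophage-like cells and 1.62 (1.02 to 2.61) in tumour-like cells, where it rests on 34 and 45 UMIs, but 0.873 in cDC2-like, 0.857 in mature dendritic-like and 0.860 in monocyte-like cells.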

How the results depend on the processing

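The summed class II ratio stayed below 1 in cDC1-like, cDC2-like, mature dendritic-like, monocyte-like and C1q macrophage-like cells under each setting tried. It moved beyond its counting interval in the following. With the stricter gate it was 0.727 in cDC2-like, 0.668 in monocyte-like and 0.928 in C1q macrophage-like cells; with the looser gate, 0.654 in monocyte-like cells. With no mitochondrial limit it was 0.607 in mature dendritic-like cells. Without the 8% of highest doublet scores it was 0.781 in cDC2-like, 0.580 in mature dendritic-like and 0.652 in monocyte-like cells. Thinning gave 0.846, 0.641 and 0.683 in the same classes. Division by the median ratio of all genes gave 0.776 in cDC1-like, 0.589 in mature dendritic-like and 0.932 in C1q macrophage-like cells. Without shared barcodes it was 0.576 in mature dendritic-like cells. Chosen after seeing the data, keeping cells with markers of a second lineage gave 0.751 in cDC2-like, 0.612 in mature dendritic-like, 0.691 in monocyte-like and 0.933 in C1q macrophage-like cells, and leaving out cells with Ngp, Camp or Ltf gave 0.631 in monocyte-like cells.

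Reversed values were 1.42 (looser gate) and 2.96 (thinned) for the sum in tumour-like cells, with H2-Aa at 1.67 and Cd74 at 1.28 (looser gate) and Cd74 at 3.07 (thinned). Thinning also reversed H2-Oa in cDC1-like cells (1.14) and H2-DMb1 (1.35) and Ctss (1.28) in cDC2-like cells. The cause was not tested. Of 449 values of single genes under alternatives, 380 stayed within the main counting interval, 63 moved outside it and 6 reversed. A value within that interval can still have an interval that holds 1, as Ciita had in monocyte-like cells with the stricter gate.

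The share of genes past 1.5-fold depends on the count minimum. With at least 5 and at least 100 UMIs in place of 20 it was 27.8% and 8.96% in cDC1-like, 31.5% and 11.3% in cDC2-like, 32.4% and 15.5% in mature dendritic-like, 27.1% and 10.3% in monocyte-like, 22.4% and 6.67% in C1q macrophage-like and 20.3% and 7.16% in tumour-like cells. No paired analysis was possible because each group is 1 matrix and no result comes from a test.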

Other observations

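H2-Oa, H2-DMa and Ctss were above the neutrophil-like background in the T cell-like cells of both matrices. H2-Oa was at 17.1 CPM (13.8 to 20.98) in the control and 18.0 CPM (14.1 to 22.6) in the IL-27 matrix, against 2.12 and 2.92 CPM in neutrophil-like cells and 3.51 and 3.68 CPM in C1q macrophage-like cells. After thinning, 1.85% and 1.502% of T cell-like cells had an H2-Oa UMI (11.2% and 8.58% unthinned, at median depths of 6039 and 4278.5 UMIs), against 0.108% and 0.324% of neutrophil-like cells (0.432% and 0.478% unthinned, at 2166 and 1619 UMIs). H2-DMa was at 26.0 CPM in the control and 16.0 CPM in the IL-27 matrix, against 8.19 and 7.72 CPM. In the control alone, H2-Aa, H2-Ab1, H2-DMb1 and Cd74 were above it too. Ctss was found in 14.2% and 16.5% of thinned T cell-like cells and in 7.56% and 8.13% of thinned neutrophil-like cells. It was higher in the T cell-like cells of the IL-27 matrix, at 138 and 157 CPM with a ratio of 1.14 (1.03 to 1.27), while H2-Aa at 0.571 and H2-Ab1 at 0.466 were lower there.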
